A study of Mus musculus with 6 samples.

Results

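The 9 genes described here build, copy and reshape mitochondria: Tfam, Ppargc1a, Ppargc1b, Nrf1 and Polg act in mitochondrial biogenesis, Mfn1, Mfn2 and Opa1 in fusion, and Dnm1l in fission. They were chosen by name, and every probe set that the platform's annotation gives to exactly 1 of these symbols was read, 27 of the 45037 probe sets tested; the whole table names 18193 genes. The cells were common myeloid progenitors (CMP), the marrow stage that splits into a granulocyte-monocyte and a megakaryocyte-erythrocyte branch, from C57BL6 mice with no further allele or agent named in the labels. High-ROS CMP (3 arrays) and low-ROS CMP (3 arrays) were sorted from marrow of the leg and hip bones by the fluorescence of H2-DCFDA, a probe of reactive oxygen species (ROS) that lights up on oxidation, and each fraction held 15 to 20% of all CMP. The stated purpose was the role of ROS as CMP become megakaryocyte-erythrocyte progenitors. Whether the 3 arrays per group stand for separate mice, sorts or repeats is not stated, so all p-values rest on the spread between these arrays alone, and that spread may be technical.

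Mitochondria carry their own small genome, which the nuclear-encoded DNA polymerase Polg copies and the packaging and transcription factor Tfam coats and reads. The nuclear factors Nrf1 and GA-binding protein (GABP, with the DNA-binding subunit Gabpa) switch on nuclear genes for the respiratory chain and for mitochondrial DNA upkeep, and the coactivators Ppargc1a and Ppargc1b raise their activity. Mitochondria also join and divide: Mfn1 and Mfn2 fuse the outer membrane, Opa1 fuses the inner membrane and shapes its folds, and the dynamin-like GTPase encoded by Dnm1l constricts the organelle until it splits. The respiratory chain is a main source of cellular ROS. Nrf1 here is nuclear respiratory factor 1, not the oxidant-responsive factor Nfe2l1 that shares the nickname.

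The arrays were alike, with correlations between them of 0.968 to 0.988 over all probe sets. Genes of the CMP gate and of early progenitors (Kit, Cd34, Fcgr3, Fcgr2b, Mpo, Myb, Flt3, Cebpa, Spi1 and Gata2) gave mean signals of at least 100 in 10 of 10 cases. Of these, Gata2, a factor of stem cells and of the megakaryocyte and mast cell lines, was lower in high-ROS CMP, at 206 ± 36.5 against 597 ± 5.95 in low-ROS CMP (SD, n = 3 each; limma adjusted p = 0.0147). High-ROS replicate 3 and low-ROS replicate 1 were the extremes on principal component 1, with scores of -57.9 and 47.1, and the other 4 arrays had -9.29 to 9.82. The Gapdh 3' to 5' ratio, a measure of RNA integrity and labelling, was 4.53 on high-ROS replicate 3, against 3.57 and 2.997 on high-ROS replicates 1 and 2 and 3.19, 2.84 and 2.54 on low-ROS replicates 1 to 3. The same ratio of Actb was also highest on that array, at 1.06, but only by a small margin. It was 1.03 and 1.05 on high-ROS replicates 1 and 2 and 0.976 to 1.05 on low-ROS arrays. Stem cell markers differed between the fractions, with a summed signal of 775 to 945 over 7 genes in high-ROS CMP and 1653 to 1902 in low-ROS CMP, 6 of 7 lower. The largest part of this sum was Angpt1, at 426 in high-ROS and 935 in low-ROS CMP. Of the 7 genes, 4 had mean signals under 100. Megakaryocyte markers summed to 745 to 964 over 5 genes in high-ROS CMP and 1334 to 1368 in low-ROS CMP, 4 of 5 lower. Most of that sum was Pf4, at 666 in high-ROS and 1107 in low-ROS CMP, and the other 4 had mean signals under 100. Erythroid markers summed to 6774 to 7984 over 5 genes in high-ROS CMP and 8637 to 8675 in low-ROS CMP, 4 of 5 lower. Most of this sum was Slc4a1, at 4985 in high-ROS and 6109 in low-ROS CMP, while Alas2 and Klf1 overlapped between the groups. Summed signals of the markers of neutrophils, of macrophages, of mast cells with basophils and eosinophils, of B cells, of T and NK cells and of stromal and endothelial cells overlapped between the groups. Neutrophil markers had the highest sums, 49040 to 50891 over 6 genes in high-ROS CMP and 48744 to 53219 in low-ROS CMP. Genes of the CMP gate list summed to 13718 to 15874 and 14627 to 15168. The source of the neutrophil signal was not tested. By gene, 6 of 6 neutrophil markers and 4 of 5 mast cell, basophil and eosinophil markers were lower in high-ROS CMP. These differences were small. The log2 fold changes ran from -0.16 to -0.0054 for the 6 neutrophil markers and from -0.17 to -0.028 for the other 4. Over all probe sets, 50.3% had a log2 fold change above 0. Stromal and endothelial markers had log2 fold changes above 0 in 4 of 4 cases, but the groups overlapped on each. The plain mean of Col1a1 was even lower in high-ROS CMP, at 334 against 345 (log2 fold change 0.66, SE 0.70). The remaining lists were mixed. Of the listed markers none read 0, and the lowest mean was that of the globin gene Hba-a1, at 1.0 to 8.43 in high-ROS CMP and 1.0 to 3.49 in low-ROS CMP. The part of these differences in the results on mitochondrial genes was not tested.

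No gene of the set changed past the threshold. At an adjusted p under 0.05 (limma, Benjamini-Hochberg over all 45037 probe sets), 0 of the 27 probe sets were higher and 0 were lower in high-ROS CMP, where 0.0222% of all probe sets were called, 0.00222% (1) higher and 0.02% (9) lower. An unadjusted p under 0.05 was reached by 0 higher and 1 lower member probe sets, against 6.96% of all probe sets. The median log2 fold change, high-ROS minus low-ROS, was 0.031 over the 27 probe sets, of which 14 were above and 13 below 0, and 0.0018 over all probe sets. In 3 probe sets every high-ROS array read above every low-ROS array, against 6.72% of all probe sets, and in 3 every high-ROS array read below, against 5.95%. Those above belonged to Tfam, Mfn1 and Ppargc1a and those below to Nrf1, Polg and Dnm1l. In bulk RNA, fewer cells of a type and less RNA per cell cannot be told apart.

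**Figure D1:**
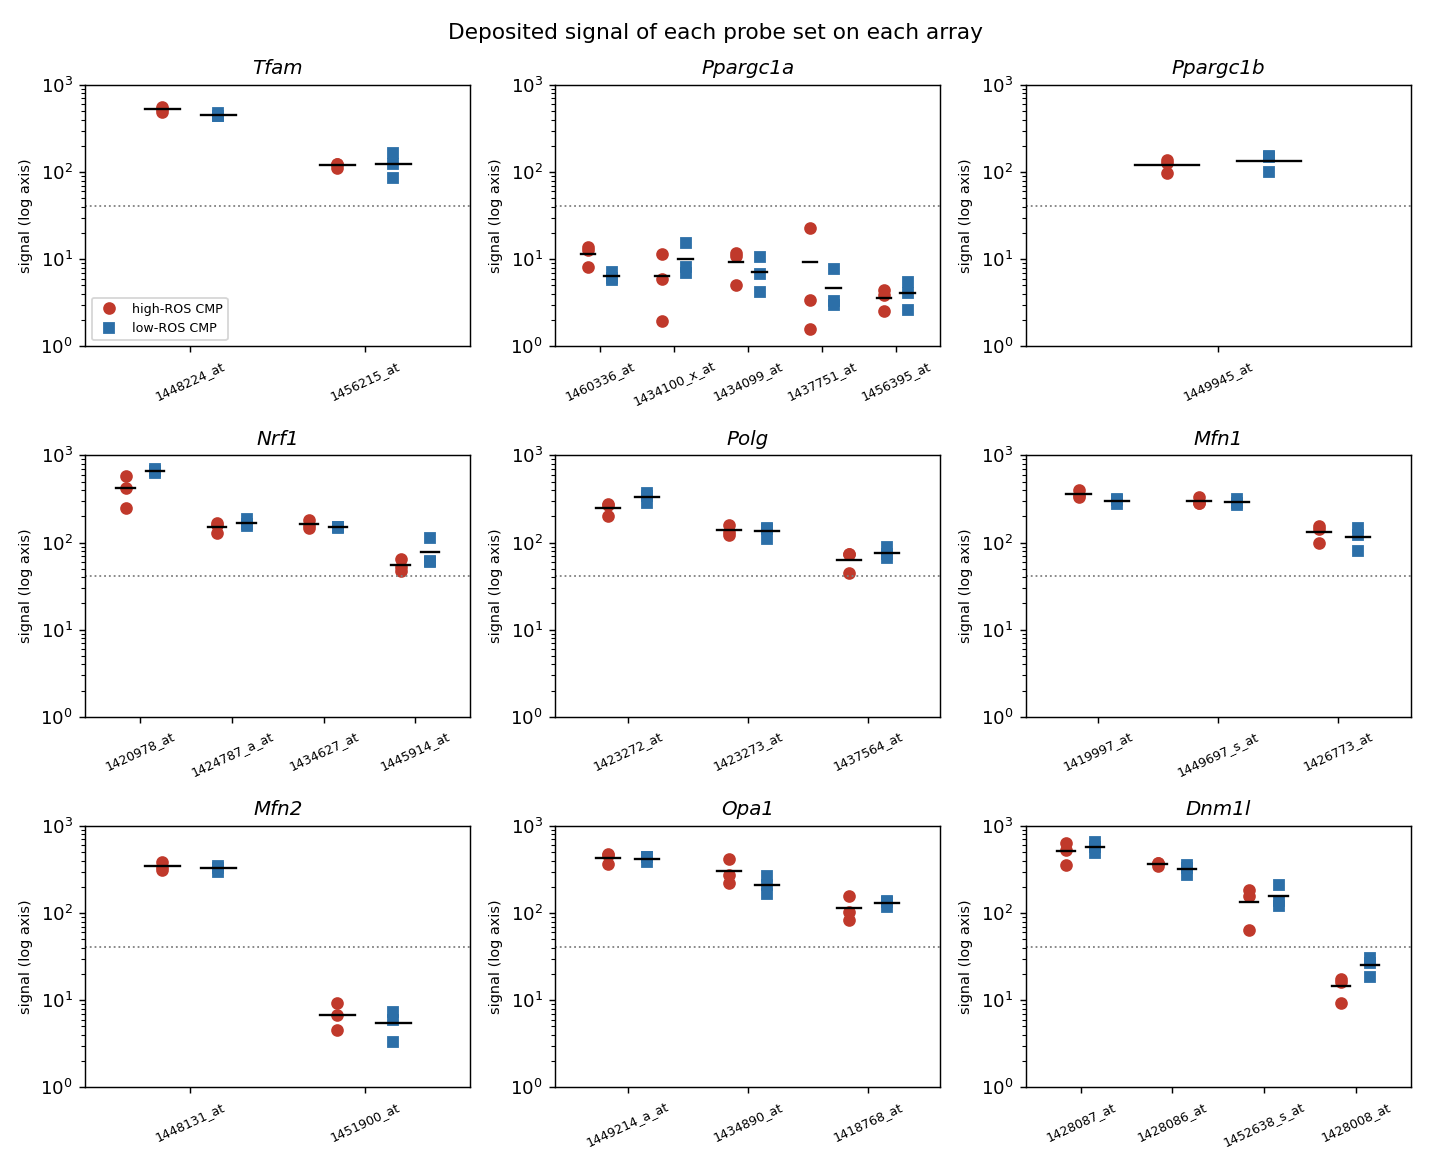
Deposited signal (log axis) of each of the 27 probe sets on the 6 arrays, in a panel for each of the 9 genes. Red circles are high-ROS CMP, blue squares low-ROS CMP, black bars the means of 3 arrays and the dotted line the median signal of the table. All 5 probe sets of Ppargc1a lie below that line on 6 of 6 arrays, and the groups of most probe sets overlap.

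The 95% intervals rest on the spread between these 6 arrays in the fit without covariates, and do not bound a change beyond it. With the Gapdh covariate, Dnm1l 1452638_s_at had 0.51, outside its interval of -0.98 to 0.48 on the log2 scale. Dnm1l 1428087_at then had 0.30, outside -0.65 to 0.27, and Nrf1 1420978_at had -0.13, outside the interval given below. Of the 18 probe sets with a mean signal of at least 100, 16 had a 95% interval of the fold change that lay inside a 2-fold change in either direction, and 9 inside a 1.5-fold change. The 2 that reached past 2-fold were Nrf1 1420978_at, with an interval from -1.26 to -0.17 on the log2 scale, and Opa1 1434890_at, from -0.062 to 1.003. The other 9 probe sets were dimmer, 7 of them below the median signal of the table on 6 of 6 arrays, and their fold changes are shrunk by the pseudocount of 16. Of the 8 genes read by more than 1 probe set, 6 had probe sets on both sides of 0, and Mfn1 and Mfn2 had all of theirs above 0.

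**Figure D2:**
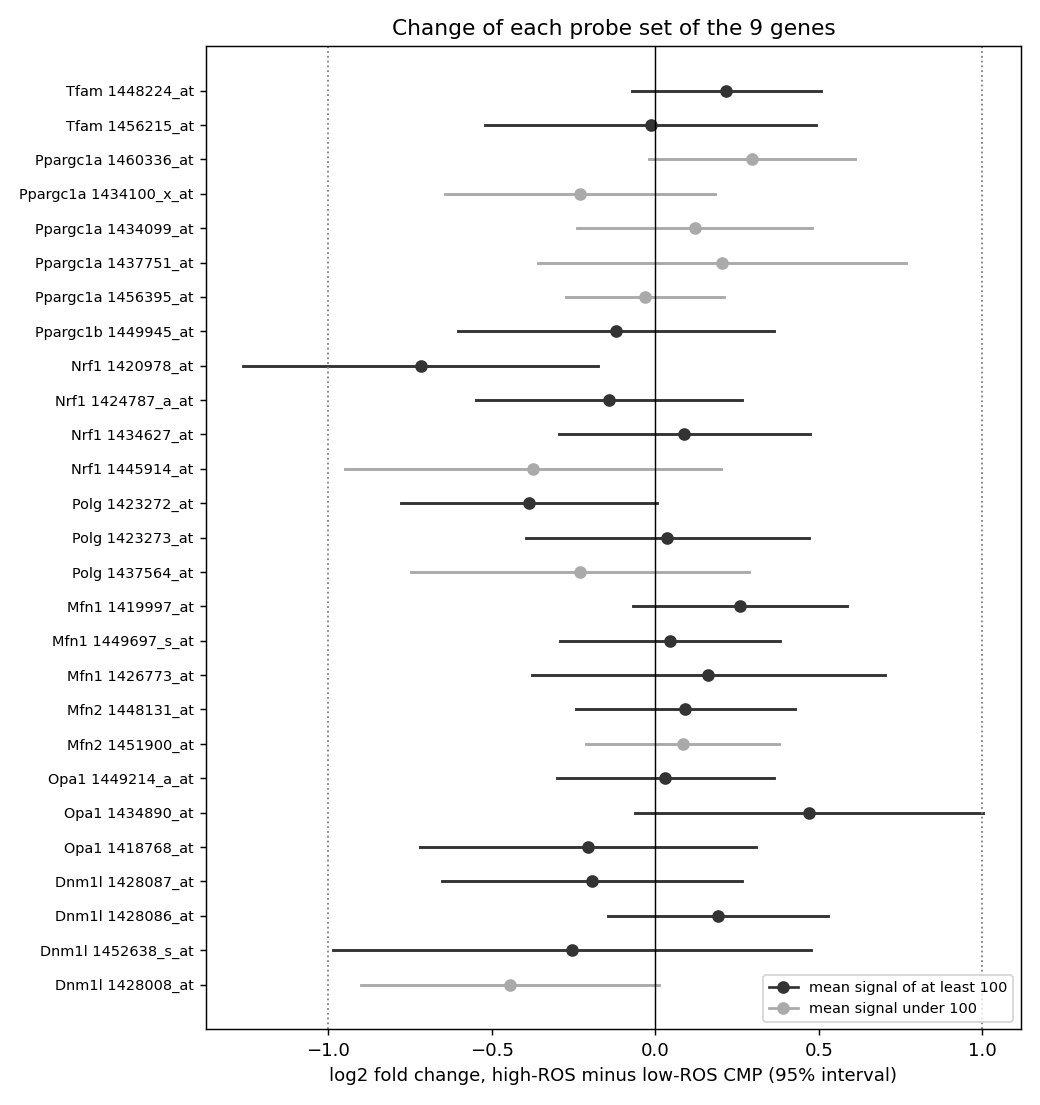
Log2 fold change (high-ROS minus low-ROS CMP) of the 27 probe sets with 95% intervals from limma. Dark points have a mean signal of at least 100, grey points less, and the dotted lines mark a 2-fold change. Nrf1 1420978_at is the farthest from 0, at -0.72, and its interval is the one that does not reach 0.

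Nrf1, the transcription factor of respiratory chain genes, had the log2 fold change farthest from 0 at the pseudocount of 16, though not by the plain means, where dim probe sets of Ppargc1a and Dnm1l differed by more, nor with the Gapdh covariate. Its probe set 1420978_at read 421, 587 and 249 in high-ROS CMP, against 626, 657 and 701 in low-ROS CMP. Every high-ROS array lay below every low-ROS array, and high-ROS replicate 3 was the lowest. The mean was 419 ± 169 (SD, n = 3) in high-ROS CMP and 662 ± 37.8 (SD, n = 3) in low-ROS CMP. The log2 fold change was -0.72 (SE 0.25), 1.64-fold lower on the scale of signal plus pseudocount, which did not pass over all probe sets (limma adjusted p = 0.696, unadjusted 0.0144). Without high-ROS replicate 3 the log2 fold change was -0.40, and with the log2 Gapdh ratio as a covariate it was -0.13. That ratio partly followed the groups, at 2.997 to 4.53 on high-ROS and 2.54 to 3.19 on low-ROS arrays. Fits with this covariate, here and below, therefore cannot fully separate the ratio from the difference between the groups.

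The groups overlapped on the other 3 probe sets of Nrf1, whose difference from 1420978_at was not tested. Probe set 1424787_a_at read 167, 161 and 127 in high-ROS CMP and 153, 189 and 164 in low-ROS CMP (log2 fold change -0.14, SE 0.18). Probe set 1434627_at read 158, 184 and 145 in high-ROS CMP and 153, 148 and 153 in low-ROS CMP (log2 fold change 0.089, SE 0.17). The dimmer 1445914_at read 53.0, 47.0 and 64.2 in high-ROS CMP and 114, 61.7 and 59.1 in low-ROS CMP, with low-ROS replicate 1 alone above the rest (log2 fold change -0.37, SE 0.26, 95% interval -0.95 to 0.20). It was -0.12 without that array and -0.73 with the Gapdh covariate.

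The genes whose pattern over the 6 arrays was most like that of Nrf1 1420978_at were sought among 8156 genes with a mean signal of at least 100, by the root mean square difference of their centred log2 values. They were Septin11, a cytoskeletal GTPase, at 0.037, Gatad2a, a subunit of a chromatin-remodelling complex, at 0.067, Galnt6, an enzyme that starts O-linked glycans, at 0.086, Cd37, a leukocyte tetraspanin, at 0.088, and Gabpa, at 0.095. The values of Nrf1 itself had a root mean square of 0.50 around their mean. Gabpa 1450665_at read 686, 811 and 368 in high-ROS CMP, against 827, 951 and 948 in low-ROS CMP. Since it was picked for its likeness to Nrf1 on these arrays, the shared order of the arrays is no further result. Its log2 fold change was -0.61 (SE 0.24, limma adjusted p = 0.702), -0.28 without high-ROS replicate 3 and -0.037 with the Gapdh covariate, and its other probe set had -0.064. The part of the Gapdh ratio in these values was not tested beyond the covariate fit.

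**Figure D3:**
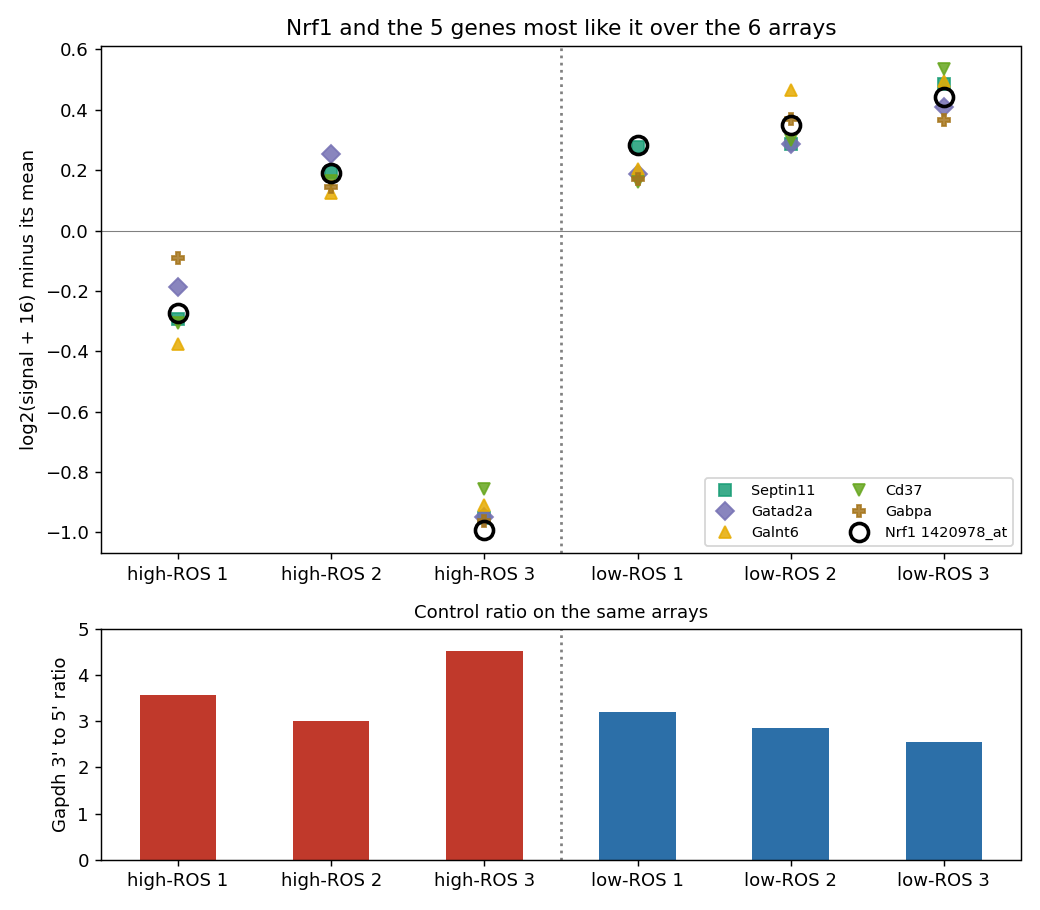
Upper panel: log2(signal + 16) minus its mean over the 6 arrays for Nrf1 1420978_at (open circles) and the 5 genes most like it. Lower panel: the Gapdh 3' to 5' ratio of the same arrays, red for high-ROS and blue for low-ROS CMP. The 5 genes were picked for following Nrf1, so their shared low on high-ROS replicate 3, whose ratio is 4.53, restates that choice.

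Nrf1 and Gabpa, 2 of several nuclear factors of this pathway, were chosen for a promoter search after the values were seen. The promoters of the 9 genes were read for the letters they are known to bind: for Nrf1, GCGCA followed directly by its reverse complement TGCGC, which reads the same on both strands, and for GABP and other ETS factors, CCGGAAGT on either strand. RefSeq (GRCm38.p6) gave 12 promoters of 8 of the 9 genes, each from 250 bases before to 50 after a transcript start; Ppargc1b had none there. The Nrf1 letters stood in 1 of the 12 promoters, that of Opa1, and in 0.971% of all 32851 promoters (1 of 8 genes, against 1.07% of all genes). The GABP letters stood in 3 of the 12 promoters, those of Tfam, Polg and Mfn1, and in 3.89% of all promoters (3 of 8 genes, against 4.31%). The 4 promoters with a match are shown 5' to 3', with the matched letters in capitals.
Opa1, chr16:29579084-29579383, + strand: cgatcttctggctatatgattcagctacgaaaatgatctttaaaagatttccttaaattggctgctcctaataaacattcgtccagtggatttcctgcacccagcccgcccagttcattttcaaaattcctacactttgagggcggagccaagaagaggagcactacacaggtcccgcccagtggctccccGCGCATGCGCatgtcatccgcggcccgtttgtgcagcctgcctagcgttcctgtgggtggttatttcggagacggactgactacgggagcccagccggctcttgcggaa
Tfam, chr10:71237995-71238294, - strand: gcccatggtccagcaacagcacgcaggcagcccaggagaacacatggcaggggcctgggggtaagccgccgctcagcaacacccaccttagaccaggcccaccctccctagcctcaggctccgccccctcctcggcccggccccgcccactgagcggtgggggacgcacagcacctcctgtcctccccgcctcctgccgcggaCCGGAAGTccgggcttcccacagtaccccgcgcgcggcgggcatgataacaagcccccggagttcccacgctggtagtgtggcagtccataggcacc
Polg, chr7:79466224-79466523, - strand: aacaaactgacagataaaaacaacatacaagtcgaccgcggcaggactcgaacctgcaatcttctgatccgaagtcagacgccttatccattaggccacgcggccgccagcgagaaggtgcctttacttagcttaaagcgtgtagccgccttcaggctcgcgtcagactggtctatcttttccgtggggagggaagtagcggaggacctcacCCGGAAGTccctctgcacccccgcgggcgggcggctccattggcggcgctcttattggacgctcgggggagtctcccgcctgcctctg
Mfn1, chr3:32529232-32529531, + strand: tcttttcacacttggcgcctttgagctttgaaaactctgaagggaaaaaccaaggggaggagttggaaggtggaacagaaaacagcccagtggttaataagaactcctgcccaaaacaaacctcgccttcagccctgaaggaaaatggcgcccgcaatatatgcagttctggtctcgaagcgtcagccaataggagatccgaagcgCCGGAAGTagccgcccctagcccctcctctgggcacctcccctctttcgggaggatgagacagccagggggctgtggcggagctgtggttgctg
The Nrf1 letters begin 59 bases before the start of Opa1, and the GABP letters 47 bases before that of Tfam, 38 before that of Polg and 44 before that of Mfn1. A match is a description of the sequence and does not show that a factor binds there. Only these exact letters were sought, so a promoter with no match is not shown to lack a site. Of the 3 genes with the GABP letters, Tfam and Mfn1 each had a probe set on which high-ROS arrays read above low-ROS arrays and Polg had one on which they read below. On all other probe sets of these 3 genes the groups overlapped. Nrf1, Dnm1l and Ppargc1a, with no match in their promoters, each had a probe set without overlap too. Of all probe sets, 12.7% had groups that did not overlap.

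Tfam and Polg are nuclear genes whose products serve the mitochondrial genome. Tfam 1448224_at read 536, 487 and 556 in high-ROS CMP, against 472, 438 and 441 in low-ROS CMP. The 3 high-ROS arrays lay above the 3 low-ROS arrays by a small margin. The mean was 526 ± 35.4 in high-ROS CMP and 450 ± 18.7 in low-ROS CMP (SD, n = 3 each), a log2 fold change of 0.22 (SE 0.13, limma adjusted p = 0.767), and of 0.11 with the Gapdh covariate. Its other probe set, 1456215_at, read 125, 110 and 124 in high-ROS CMP and 164, 86.4 and 124 in low-ROS CMP, with groups that overlapped (log2 fold change -0.014, SE 0.23).

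Polg 1423272_at, for the catalytic subunit of the mitochondrial DNA polymerase, read 273, 278 and 203 in high-ROS CMP, against 284, 346 and 366 in low-ROS CMP. The groups did not overlap, but high-ROS replicate 2 and low-ROS replicate 1 lay close together. The log2 fold change was -0.39 (SE 0.18, limma adjusted p = 0.718), -0.25 without high-ROS replicate 3 and -0.095 with the Gapdh covariate. The annotation gives the same accession to 1423273_at, which read 160, 122 and 132 in high-ROS CMP and 145, 147 and 111 in low-ROS CMP (log2 fold change 0.037, SE 0.20). The dimmer 1437564_at read 73.1, 73.5 and 45.2 in high-ROS CMP and 73.8, 66.9 and 89.7 in low-ROS CMP (log2 fold change -0.23, SE 0.23). On both, the groups overlapped.

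The coactivator Ppargc1a, known as PGC-1α and abundant in oxidative tissues such as brown fat and muscle, gave signals from 1.58 to 22.7 in high-ROS CMP and 2.62 to 15.4 in low-ROS CMP over its 5 probe sets. All 30 values lay below the median signal of their array. Probe set 1460336_at read 8.06, 12.8 and 13.8 in high-ROS CMP, against 5.76, 6.10 and 7.16 in low-ROS CMP. Those groups did not overlap, but both lay well below the array medians (log2 fold change 0.30, SE 0.14, limma adjusted p = 0.723). The other 4 probe sets had log2 fold changes from -0.23 to 0.20 and overlapping groups. The related coactivator Ppargc1b, on its single probe set 1449945_at, read 128, 139 and 97.1 in high-ROS CMP and 152, 149 and 101 in low-ROS CMP. Replicate 3 was the lowest array of each group, and the groups overlapped (log2 fold change -0.12, SE 0.22).

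No fusion gene passed the threshold. Mfn1, an outer membrane GTPase that tethers neighbouring mitochondria, read 338, 350 and 406 in high-ROS CMP on 1419997_at, against 280, 314 and 309 in low-ROS CMP. The groups did not overlap (mean 365 ± 36.1 in high-ROS CMP and 301 ± 18.4 in low-ROS CMP, SD, n = 3 each), and the log2 fold change was 0.26 (SE 0.15, limma adjusted p = 0.758). Its probe set 1449697_s_at, to which the annotation gives the same accession, read 284, 331 and 281 in high-ROS CMP and 271, 314 and 283 in low-ROS CMP (log2 fold change 0.045, SE 0.15). Probe set 1426773_at read 100.2, 142 and 153 in high-ROS CMP and 80.9, 148 and 123 in low-ROS CMP, and the groups overlapped (log2 fold change 0.16, SE 0.24).

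Mfn2, the second mitofusin, which also ties mitochondria to the endoplasmic reticulum, read 341, 315 and 387 in high-ROS CMP on 1448131_at and 296, 352 and 327 in low-ROS CMP. The groups overlapped, and the 95% interval of the log2 fold change ran from -0.24 to 0.43 around 0.092. Its probe set 1451900_at stayed at 4.52 to 9.19 in high-ROS CMP and 3.35 to 7.26 in low-ROS CMP, below the array medians.

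Opa1, the inner membrane fusion GTPase, was read by 3 probe sets. Probe set 1449214_a_at read 462, 473 and 368 in high-ROS CMP and 435, 446 and 388 in low-ROS CMP (log2 fold change 0.031, SE 0.15). Probe set 1434890_at read 222, 276 and 416 in high-ROS CMP and 164, 264 and 208 in low-ROS CMP, with high-ROS replicate 3 far above the others (log2 fold change 0.47, SE 0.24, limma adjusted p = 0.731; 0.23 without that array and 0.27 with the Gapdh covariate). Probe set 1418768_at read 103, 159 and 82.9 in high-ROS CMP and 139, 135 and 119 in low-ROS CMP, where replicate 3 was instead the lowest high-ROS array (log2 fold change -0.20, SE 0.23). It was -0.43 when high-ROS replicate 2 was left out, -0.023 when replicate 3 was, and 0.11 with the Gapdh covariate, under which Opa1 1449214_a_at had 0.16, so all 3 were then above 0. The groups overlapped on all 3 probe sets.

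Dnm1l, which encodes the fission GTPase Drp1, also gave probe sets on both sides of 0. Probe set 1428087_at read 534, 641 and 353 in high-ROS CMP and 487, 572 and 658 in low-ROS CMP (log2 fold change -0.19, SE 0.21). The sign rested on high-ROS replicate 3: without it the log2 fold change was 0.042, and with the Gapdh covariate 0.30. Probe set 1428086_at, with the same accession, read 349, 379 and 377 in high-ROS CMP and 276, 332 and 358 in low-ROS CMP (log2 fold change 0.19, SE 0.15).

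Probe set 1452638_s_at of Dnm1l read 159, 182 and 64.1 in high-ROS CMP and 136, 120 and 210 in low-ROS CMP. High-ROS replicate 3 was again the lowest array, and the log2 fold change of -0.25 (SE 0.33) became 0.15 without it. The last probe set, 1428008_at, read 16.4, 17.6 and 9.39 in high-ROS CMP, against 30.9, 26.9 and 18.5 in low-ROS CMP, with no overlap but below the array medians in both groups (log2 fold change -0.44, SE 0.21, limma adjusted p = 0.718).

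No gene of the wider machinery passed the threshold either. Of 141 further genes on 7 lists, 119 had a probe set with their name alone, 288 probe sets in all. In limma 0 of the 288 were higher and 0 lower at an adjusted p under 0.05. An unadjusted p under 0.05 was reached by 15 higher probe sets, against 3.39% of all probe sets, and by 11 lower ones, against 3.57%. The median log2 fold change was -0.0094. The groups did not overlap for 14.9% of these probe sets, against 12.7% of all probe sets.

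In genes that keep and transcribe mitochondrial DNA (34 probe sets of 21 genes) the median log2 fold change was 0.037, with 18 above and 16 below 0. Tfb1m, a mitochondrial ribosomal RNA methyltransferase, read 172, 169 and 231 in high-ROS CMP on one probe set, against 88.3, 130 and 93.9 in low-ROS CMP. Those groups did not overlap (log2 fold change 0.79, SE 0.21, limma adjusted p = 0.599), while its other probe set had 0.0037. Twnk, the mitochondrial DNA helicase, showed a log2 fold change of 0.53 (SE 0.24), and 0.32 without low-ROS replicate 1. Ssbp1, which coats single-stranded mitochondrial DNA, had 0.20 (SE 0.090), and its other 4 probe sets had -0.21 to 0.24. The 1 transcript of the mitochondrial genome itself that could be named, ND5 of respiratory complex I, read 6040, 5989 and 5057 in high-ROS CMP and 6582, 6297 and 5832 in low-ROS CMP, with groups that overlapped (log2 fold change -0.13, SE 0.091).

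Regulators of biogenesis (49 probe sets of 18 genes) had a median of -0.064, with 16 above and 33 below 0. Beside Gabpa, the smallest unadjusted p belonged to Nrip1, a corepressor of nuclear receptors, at -0.63 on the log2 scale (SE 0.19) and -0.60 to -0.023 on its other 5 probe sets, and to Prkaa1, a catalytic subunit of the energy sensor AMPK. Prkaa1 read 139, 138 and 204 in high-ROS CMP, against 74.2, 118 and 96.9 in low-ROS CMP, with no overlap (log2 fold change 0.65, SE 0.23, limma adjusted p = 0.701).

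Genes that process Opa1 or shape the inner membrane (36 probe sets of 15 genes) had a median of 0.062. Chchd6, a subunit of the complex at the neck of the inner membrane folds, showed a log2 fold change of 1.05 (SE 0.35) on one probe set and 0.39 on the other. It read 130, 254 and 330 in high-ROS CMP and 81.4, 70.3 and 168 in low-ROS CMP, where the groups overlapped. Phb2, an inner membrane prohibitin, had 0.27 (SE 0.11) and -0.0094 to 0.34 on its other 3 probe sets, and Apool, another subunit of that complex, had -0.64 (SE 0.20) from signals of 8.08 to 18.1 in high-ROS CMP and 25.2 to 32.3 in low-ROS CMP.

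Adaptors of fission, fusion and transport (64 probe sets of 24 genes) had a median of 0.062. Mff, which recruits the fission GTPase to the outer membrane, showed a log2 fold change of -0.49 (SE 0.19) on one probe set and 0.20 to 0.26 on its other 3. Mtch2, an outer membrane protein, had 0.42 (SE 0.17) on one of 7 probe sets and -0.37 to 0.35 on the rest. Gdap1 had 0.26 (SE 0.10) from signals of 4.43 to 6.71 in high-ROS CMP and at most 2.4 in low-ROS CMP.

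Genes of mitophagy, the removal of mitochondria by autophagy (50 probe sets of 18 genes), had a median of -0.052, with 18 above and 32 below 0. Gabarapl1, a protein of the autophagosome membrane, read 224, 304 and 135 in high-ROS CMP, against 475, 353 and 400 in low-ROS CMP. The groups did not overlap (log2 fold change -0.90, SE 0.25, limma adjusted p = 0.618), high-ROS replicate 3 was the lowest array, and the other probe set had -0.17. Usp30, a deubiquitinase that restrains mitophagy, had 0.84 (SE 0.28, 0.53 without low-ROS replicate 1) on one probe set and -0.11 on the other. Tax1bp1, an autophagy receptor, had -0.75 (SE 0.30, -0.47 without high-ROS replicate 3) on one probe set and -0.21 to 0.13 on its other 3.

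Genes of protein import and general mitochondrial content (54 probe sets of 22 genes) had a median of 0.036. The groups did not overlap for 20.4% of them, 11 higher and 0 lower in high-ROS CMP, against 6.72% of all probe sets higher and 5.95% lower. Of these 54, 45 had a mean signal of at least 100. Among all 16129 probe sets that bright, the groups did not overlap for 16.1%, with 1340 probe sets higher and 1252 lower. That 16.1% covers both directions, while all 11 of the import list were higher. The cause of this one-sided count was not tested. Tomm20, a receptor of the outer membrane import channel, read 1632, 1536 and 1811 in high-ROS CMP on one probe set, against 1203, 1317 and 1512 in low-ROS CMP (log2 fold change 0.30, SE 0.12, limma adjusted p = 0.702), and its other 5 probe sets had -0.19 to 0.40. Timm22, the core of the inner membrane carrier translocase, had 0.43 (SE 0.19, 0.26 without high-ROS replicate 3) on one probe set and 0.42 on the other. Tomm70a, a second import receptor, had 0.61 (SE 0.29) from low signals, 0.28 without high-ROS replicate 3, and -0.34 to 0.15 on its other 4 probe sets.

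**Figure D4:**
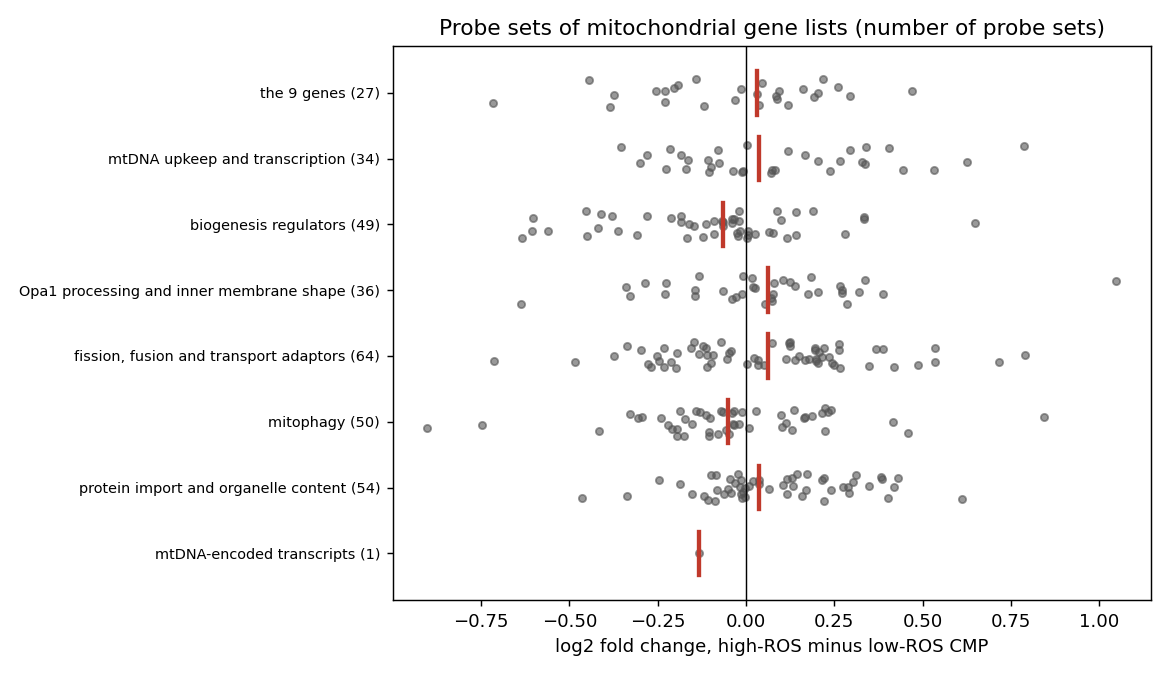
Log2 fold change (high-ROS minus low-ROS CMP) of every probe set of the 9 genes and of 7 lists of other mitochondrial genes, with the number of probe sets in brackets. Points are probe sets, spread vertically at random, and red bars are medians. The medians of all lists with more than 1 probe set lie between -0.064 and 0.062 with all 6 arrays, and between -0.11 and 0.12 when any 1 array is left out.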

How the data were processed

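Total RNA of sorted CMP was amplified and labelled with biotin (NuGEN Ovation), per the labels' protocols. The authors deposited linear intensity values, one for each probe set on each array; their summary and scaling method was not given in the sources used here. Values are never below 0.8, and array medians were 40.3 to 42.4. No detection call was used. Of 45101 probe sets, 64 controls were left out; 34945 had 1 symbol, 932 several and 9160 none listed. The log2(signal + 16) of 45037 probe sets was fitted without further normalization with limma 3.58.1 in R 4.3.3 (lmFit, eBayes with trend, 2-sided, high-ROS minus low-ROS), with Benjamini-Hochberg adjustment over all of them and a threshold of 0.05. Residual degrees of freedom were 4. The p-values and intervals use limma's moderated variances, which borrow from all probe sets, with total degrees of freedom of 10.7 in the median. An exact permutation test of 3 against 3 arrays cannot go below 0.1, so none is given. The number of arrays limits the precision. The script was tested on simulated data. Figures used Python 3.11.15 and matplotlib 3.10.9. Named were all probe sets of the 9 genes, per list the 3 genes of smallest unadjusted p, and the 5 genes most like the brighter member probe set (mean signal of at least 100) with the smallest p. Alternatives were no trend, other pseudocounts, quantile normalization, a filter on low signals, 1 test per gene, a replicate block, array weights, the Gapdh ratio as a covariate and leaving out each array. The members and lists were chosen with earlier results of these data known. The motifs were chosen after the values were seen.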

Additional observations from a re-analysis of the deposited data

How the results depend on the processing

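In each of the 15 alternatives limma called 0 of the member and list probe sets it tested (20 member probe sets with only those above the median signal and 9 with 1 test per gene, 27 otherwise), and the lowest adjusted p of a member was 0.374, for Nrf1 1420978_at without high-ROS replicate 2. Of the 27, 13 kept their sign in every alternative that tested them and 14 changed it at least once. The calls over the table, 1 higher and 9 lower, became 0 and 0 with no trend (by unadjusted p under 0.05, 1592 higher and 1478 lower), 0 higher with a pseudocount of 64, 2 higher with quantile normalization, 2 higher with only probe sets above the median signal, 3 higher with 1 test per gene, 10 higher and 23 lower with array weights and 0 higher with the Gapdh covariate. Leaving out 1 array gave 0 higher and 3 to 8 lower. Same-numbered arrays shared little of their deviations (correlations 0.098, 0.086 and 0.0092), which cannot show whether they came from the same sort. With the replicate block limma called 0 higher and 5 lower. By unadjusted p under 0.05 that fit had 1616 higher and 1890 lower, against 1526 and 1610 in the main fit. The median of the members was 0.031 with all arrays and ran from -0.061 to 0.055 when 1 array was left out, when 3 to 5 member probe sets were separate in each direction. The median of the import list was 0.14 with the Gapdh covariate. When 1 array was left out, list medians ran from 0.014 to 0.10 for DNA upkeep, -0.11 to -0.030 for biogenesis regulators, 0.0071 to 0.12 for Opa1 processing, 0.034 to 0.12 for adaptors, -0.077 to -0.027 for mitophagy and 0.018 to 0.12 for import. The cause of these shifts was not tested.

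The Gapdh ratio partly followed the groups, so a change of sign in its fit cannot be credited to the ratio alone. With the Gapdh covariate the log2 fold change turned to 0.071 for Ppargc1a 1456395_at, 0.029 for Nrf1 1424787_a_at, -0.081 for Polg 1423273_at, 0.092 for Polg 1437564_at, -0.0045 for Mfn2 1448131_at, 0.11 for Opa1 1418768_at, 0.30 for Dnm1l 1428087_at, 0.51 for Dnm1l 1452638_s_at and 0.022 for Gatad2a. With array weights it turned to 0.083 for Tfam 1456215_at and -0.048 for Mfn1 1426773_at. When 1 array was left out it ran from -0.22 to 0.18 for Tfam 1456215_at, -0.15 to 0.42 for Ppargc1a 1437751_at, -0.084 to 0.017 for Ppargc1a 1456395_at, -0.29 to 0.015 for Ppargc1b 1449945_at, -0.082 to 0.11 for Polg 1423273_at, -0.050 to 0.33 for Mfn1 1426773_at, -0.027 to 0.10 for Mfn1 1449697_s_at, -0.033 to 0.14 for Opa1 1449214_a_at, -0.37 to 0.042 for Dnm1l 1428087_at and -0.50 to 0.15 for Dnm1l 1452638_s_at.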
